A study of Mus musculus with 6 samples.

Results

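The immunity-related GTPases (IRGs) and the guanylate-binding proteins (GBPs) were followed in RAW 264.7 cells, a macrophage-like line from mouse, after 16 hours with or without bacterial lipopolysaccharide (LPS) given together with LPS-binding protein. The 8 of 10 listed genes that could be measured were all higher in treated cells, on all 6 arrays. The 6 IRG genes (Igtp, Irgm1, Irgm2, Iigp1, Tgtp1 and Ifi47) rose by 1.66-fold to 4.12-fold, and the 2 measured GBP genes, Gbp2 and Gbp3, rose 4.71-fold and 10.6-fold. Gbp3 led by the mean of its 2 probes, which gave 24.2-fold and 4.67-fold. The lower probe put Gbp3 beside Gbp2. Ifi47 rose least. The listed Gbp5 and Gbp7 are named by no probe in the annotation used here and were not analysed here, so the GBP side of the comparison rests on 2 genes of 4.

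Both families are large GTPases that cells make when interferon reaches them. They gather on the membranes of vacuoles that hold bacteria or parasites. Among the IRGs, the regulatory IRGM proteins (Irgm1, Irgm2 and Igtp, also known as Irgm3) sit on the cell's own membranes and hold the effector IRGs inactive there, while effectors such as Iigp1 and Tgtp1 load onto the pathogen's vacuole and break it. GBPs, relatives of the dynamins, coat vacuoles and free bacteria and help caspase-4 (often called caspase-11) to sense LPS in the cytosol.

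The members are the probes whose platform annotation names exactly 1 gene symbol from the list of 10 genes, which gave 10 probes of 8 genes out of 16281 probes and 10698 genes named by 1 symbol. Total RNA of untreated RAW 264.7 cells was compared with that of cells given LPS (100 ng/ml) plus LPS-binding protein (100 pM), which in serum passes LPS on to its receptor, both cultured for 16 hours. Each of 6 dual-colour arrays carried both RNAs, with the treated RNA in Cy5 on 3 arrays and in Cy3 on 3, and each orientation had sets 1, 2 and 3. Nothing in the labels says that the sets are separate cultures, and the p-values then reflect only a spread among samples that may be technical. The labels name no clone or passage. The 264.7 of most labels is used here, although the title and part of the descriptions give 264.4.

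Values are log2 ratios, treated over untreated, where 1 is a doubling. The direction of the deposited ratios is unstated. It is likely Cy5 over Cy3, since in either orientation the RNA named as the test carried Cy5 and that named as the control Cy3. Under this reading Il1b, Isg15 and Mx1, known LPS-induced genes, were higher in treated cells (log2 4.63, 3.76 and 2.70). The opposite reading would turn every sign, place and share up or down given here. A gene's value is the mean over its probes, each set is the mean of its 2 arrays, and errors are SDs over the 3 sets (n = 3). Adjusted p-values are from limma with Benjamini-Hochberg adjustment over the 9607 genes with a ratio on all 6 arrays, and a gene is called at an adjusted p under 0.05. The 60 member values held 0 exact zeros, which mark a missing ratio in this table, and the highest, at 5.32, was below the limit of 6.64 at which the table's ratios end. Ratios hold no level of either RNA, so signal over background is not known here, and the array number limits the precision. Of 9 measured macrophage markers 7 were higher and 1 lower in treated cells, but a ratio cannot show that a marker is present. Among 21 measured markers of T cells, B cells, NK cells, fibroblasts and epithelium, 3 rose and 0 fell. Of all 9607 genes, 16.8% were called up and 14.6% down. The 3 were Cd4, Cd79a and Dcn, named after their values were seen. The 21 values ran from -0.14 to 0.54, and the part of these markers in the results was not tested. In RNA from whole cultures, more cells with a transcript and more transcript per cell cannot be told apart.

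All 8 measured members were called up, where 31.4% of all 9607 genes were called, 16.8% up and 14.6% down. Calls, made against 0, came with a mean rise of at least 2-fold for 7 of the 8, all but Ifi47, against 3.67% of all genes. In limma's test against a fold of 2, 6 of the 8 passed, and 191 of all 9607 genes were called up. All 8 lay above 0 on all 6 arrays, against 18.6% of all genes. The members' median was 1.92 and that of all genes tested was -0.0076. By size of rise Gbp3 stood at place 30 of 9607, Gbp2 at 88, Irgm1 at 109, Tgtp1 at 121, Irgm2 at 124, Igtp at 130, Iigp1 at 148 and Ifi47 at 552.

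**Figure D1:**
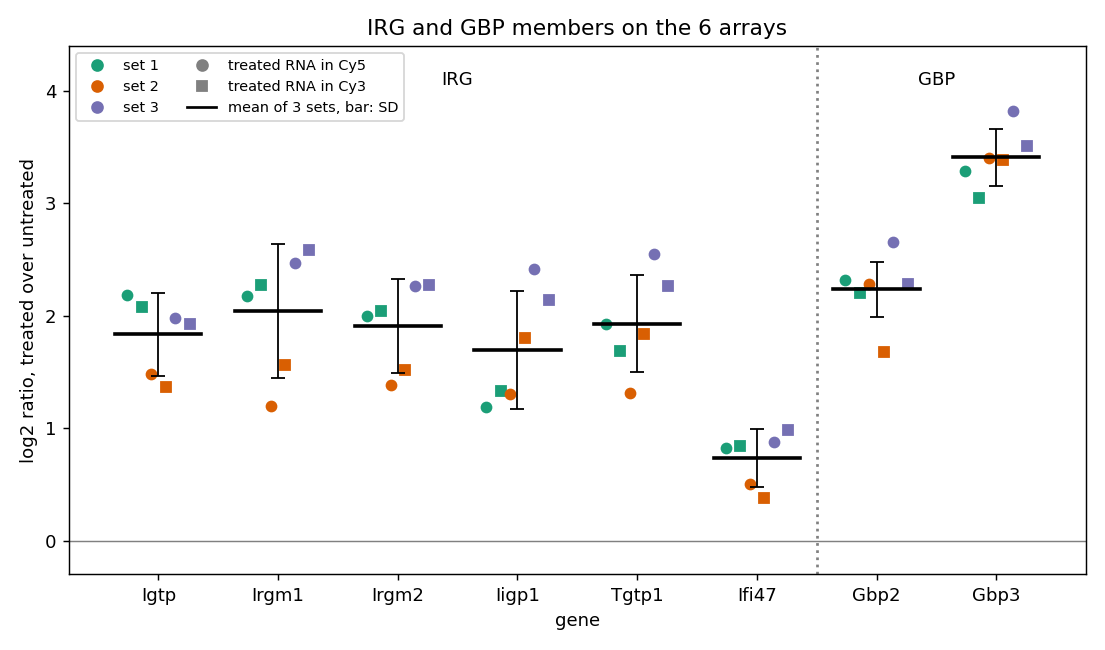
Log2 ratio of treated over untreated RNA (y axis) for the 8 measured members (x axis); circles are arrays with treated RNA in Cy5, squares those with treated RNA in Cy3, colours are the sets, and the black line and bar give the mean and SD of the 3 sets. Every array lies above 0, from 0.38 for Ifi47 to 3.82 for Gbp3, and for Igtp, Irgm1, Irgm2 and Ifi47 both arrays of set 2 lie lowest.

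The 3 regulatory IRGs rose to nearly the same extent. Igtp stood at 2.18, 1.48 and 1.98 in sets 1, 2 and 3 with treated RNA in Cy5, and at 2.08, 1.36 and 1.92 with it in Cy3. Both arrays of set 2 were low, and the 2 orientations of each set lay close together. Igtp thus rose 3.57-fold (log2 1.84 ± 0.37, n = 3, 95% interval 1.52 to 2.15, limma adjusted p = 0.000121).

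Irgm1, the regulator best known for its part in resistance to bacteria, showed the widest spread over sets of the members. In Cy5 it read 2.17, 1.19 and 2.47, and in Cy3 2.27, 1.56 and 2.59. Set 2 was again low in both orientations. The rise was 4.12-fold (log2 2.04 ± 0.60, 95% interval 1.57 to 2.52, limma adjusted p = 0.000446).

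Irgm2 followed the same course, at 2.00, 1.38 and 2.26 in Cy5 and 2.04, 1.52 and 2.27 in Cy3. Its rise was 3.76-fold (log2 1.91 ± 0.42, 95% interval 1.56 to 2.26, limma adjusted p = 0.000156). Igtp and Irgm2 are neighbours on chromosome 11, with 0 protein-coding genes between them in the RefSeq gene order. Irgm1, Tgtp1 and Ifi47 lie together in another stretch of the same chromosome.

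Among the effectors, Iigp1 and Tgtp1 came close to the regulators while Ifi47 rose less. Iigp1, which attacks the vacuole of Toxoplasma, read 1.19, 1.30 and 2.42 in Cy5 and 1.33, 1.80 and 2.14 in Cy3. Set 3 was high in both orientations, and set 1, not set 2, was lowest. It rose 3.24-fold (log2 1.70 ± 0.52, 95% interval 1.27 to 2.12, limma adjusted p = 0.000594).

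Tgtp1, another vacuole-loading effector, was measured by 2 probes, whose mean read 1.92, 1.31 and 2.55 in Cy5 and 1.69, 1.84 and 2.27 in Cy3. Its rise was 3.81-fold (log2 1.93 ± 0.43, 95% interval 1.57 to 2.29, limma adjusted p = 0.000165). The probes disagreed in size and not in direction. Probe 10743 gave 6.68-fold (log2 2.74 ± 0.51) and probe 9604 gave 2.17-fold (log2 1.12 ± 0.37), and both were called over the 13418 probes tested (limma adjusted p = 5.72e-05 and 0.00097), where 16.9% of probes were called up. Set 3 was the highest with either probe.

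Ifi47, also known as Irgd, read 0.82, 0.50 and 0.87 in Cy5 and 0.84, 0.38 and 0.98 in Cy3. By probe means, all 6 values lay below every value of the 5 other IRG members. Tgtp1 probe 9604 alone read 0.55 and 0.97 in set 2, below the highest Ifi47 value of 0.98. It rose 1.66-fold (log2 0.73 ± 0.26, 95% interval 0.48 to 0.98, limma adjusted p = 0.00235). Its interval thus ended just below a 2-fold rise.

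The start regions of these genes are shown because interferon acts on genes largely through 2 short elements, the interferon-stimulated response element (ISRE) and the gamma-activated site (GAS). RefSeq windows of GRCm38.p6, from 250 bases before to 50 after a gene's start, were at hand for 9 of the 10 listed genes, all but Iigp1. Letters GAAANNGAAA, or TTTCNNTTTC on the other strand, were taken as an ISRE match and TTCNNNGAA, which reads the same on both strands, as a GAS match. The lines give the stretch around the ISRE match of the IRG genes, 5′ to 3′ on the gene's strand, with the letters that match in capitals.
Igtp: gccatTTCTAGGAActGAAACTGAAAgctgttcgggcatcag
Irgm2: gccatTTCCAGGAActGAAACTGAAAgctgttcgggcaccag
Tgtp1: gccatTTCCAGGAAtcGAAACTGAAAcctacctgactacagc
Irgm1: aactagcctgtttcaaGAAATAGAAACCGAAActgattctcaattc
The lines lie at chr11:58199506-58199547 (plus strand) for Igtp, chr11:58214897-58214938 (plus) for Irgm2, chr11:48992298-48992339 (minus) for Tgtp1 and chr11:48871421-48871466 (minus) for Irgm1. In Igtp, Irgm2 and Tgtp1 a GAS match comes first and an ISRE match follows after 2 bases. Igtp and Irgm2 shared 40 of the 42 bases shown, Irgm2 and Tgtp1 29, and Igtp and Tgtp1 27. Over whole windows Igtp and Irgm2 were 72.8% identical in a global alignment, while the other 35 pairs of member windows reached at most 50.6%. Irgm1 had 2 overlapping ISRE matches and no GAS match. Ifi47, the member with the smallest rise, had neither string of letters in its 300-base window, which says nothing of other starts or of sequence outside it.

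The 2 measured GBP members had the largest mean values of the 8. Gbp2, a GBP found on vacuoles of parasites and bacteria, read 2.32, 2.29 and 2.65 in sets 1, 2 and 3 with treated RNA in Cy5 and 2.20, 1.68 and 2.28 with it in Cy3. Its lowest array was that of set 2 in Cy3, and the other 5 lay between 2.20 and 2.65. The rise was 4.71-fold (log2 2.24 ± 0.24, n = 3, 95% interval 1.99 to 2.48, limma adjusted p = 1.48e-05).

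Gbp3, its close relative in the same gene cluster, read 3.29, 3.41 and 3.82 in Cy5 and 3.04, 3.39 and 3.51 in Cy3, as the mean of 2 probes. All 6 values lay above every value of the other 7 members, again by probe means. The rise was 10.6-fold (log2 3.41 ± 0.25, 95% interval 3.16 to 3.66, limma adjusted p = 2.92e-06).

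The lead of Gbp3 rested on 1 of its probes. Probe 4230 read 4.44, 5.13 and 5.32 in Cy5 and 3.87, 4.25 and 4.57 in Cy3, a 24.2-fold rise (log2 4.60 ± 0.40, limma adjusted p = 2.56e-06 over probes). Probe 18514 read 2.13, 1.68 and 2.33 in Cy5 and 2.22, 2.52 and 2.45 in Cy3, a 4.67-fold rise (log2 2.22 ± 0.15, limma adjusted p = 5.71e-06). The lower probe thus put Gbp3 beside Gbp2. The 2 probes spanned 2.37 on the log2 scale, where the median span over 1846 genes with several probes was 0.12 and 0.325% of these genes had a larger span than Gbp3. For Tgtp1 the span was 1.62, exceeded by 1.14% of those genes. Gbp and Irg genes form families of related genes and the probe sequences were not analysed here, so which family member each probe reads is uncertain.

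**Figure D2:**
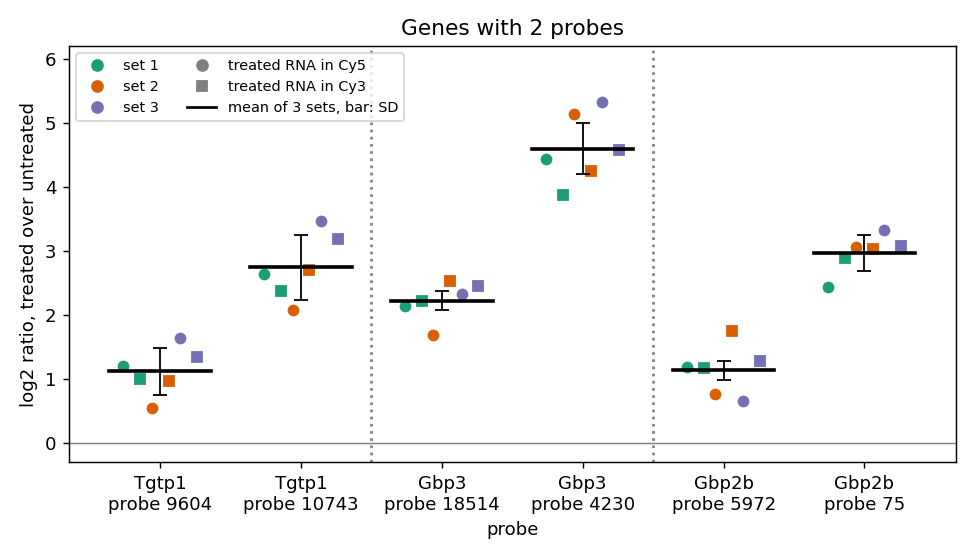
Log2 ratio of treated over untreated RNA (y axis) for each probe (x axis) of Tgtp1, Gbp3 and the related gene Gbp2b; symbols as circles for treated RNA in Cy5 and squares for Cy3, colours for sets, and the line and bar for the mean and SD of 3 sets. The probes of a gene stand apart by 1.62 in Tgtp1, 2.37 in Gbp3 and 1.83 in Gbp2b, and all 6 probes lie above 0 on every array.

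The start regions of the 4 listed GBPs all held an ISRE match, in the opposite reading direction to that of the IRGs. The stretches are shown to set the measured Gbp2 and Gbp3 beside the unmeasured Gbp5 and Gbp7, again with the ISRE letters in capitals.
Gbp2: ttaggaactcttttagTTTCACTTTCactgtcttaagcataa
Gbp3: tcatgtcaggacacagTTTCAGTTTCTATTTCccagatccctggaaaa
Gbp5: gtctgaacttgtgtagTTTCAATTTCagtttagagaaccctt
Gbp7: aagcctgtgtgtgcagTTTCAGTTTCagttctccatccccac
They lie on the plus strand of GRCm38.p6 at chr3:142620588-142620629 (Gbp2), chr3:142559983-142560030 (Gbp3), chr3:142496753-142496794 (Gbp5) and chr3:142530267-142530308 (Gbp7). Gbp3 has 2 overlapping ISRE matches at this start, and a second RefSeq start of Gbp3 had neither motif. Gbp5 and Gbp7 also had 2 GAS matches each elsewhere in their windows, while Gbp2 and Gbp3 had none. Counted by gene, an ISRE match stood in 8 of 9 member windows (88.9%) and a GAS match in 5 (55.6%). The share over all 32851 windows of this length was 3.44% for the ISRE and 8.3% for the GAS letters. Among measured genes with a window, an ISRE match was found in 14.8% of the 270 called up at least 2-fold. It was found in 6.61% of the 1301 called up, 3.31% of the 1149 called down and 3.54% of the 5191 not called. A GAS match was found in 12.6%, 9.76%, 7.05% and 8.53% of these groups, in the same order. Both groups called up include measured members. These matches are letters in a window and not shown sites of binding.

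**Figure D3:**
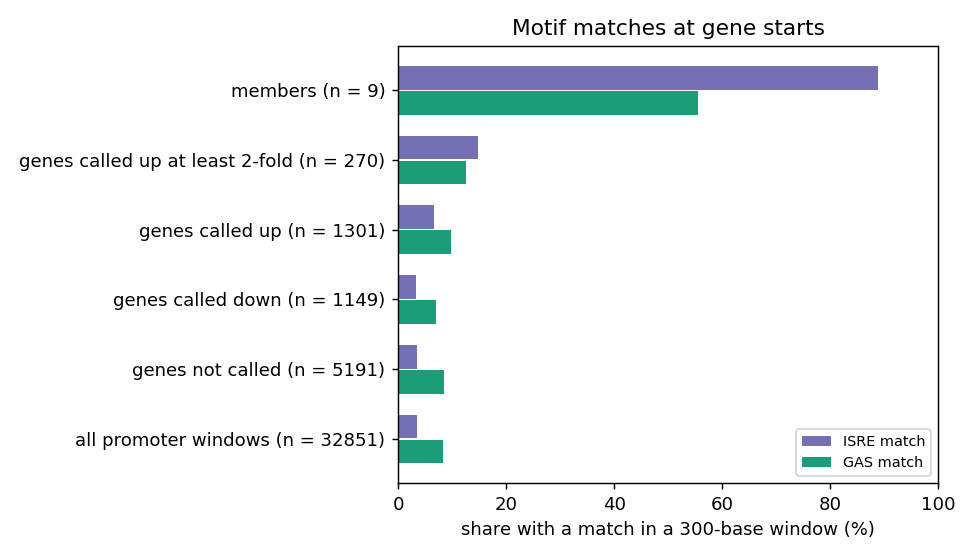
Share (x axis, %) of genes, or of all windows in the lowest pair of bars, with an ISRE match (purple) or a GAS match (green) in the 300-base RefSeq window at their start. The ISRE share is 3.54% for genes not called, 14.8% for genes called up at least 2-fold and 88.9% for the 9 listed members with a window.

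The families were then set side by side. The IRG median was 1.87 (6 genes, from 0.73 to 2.04) and the GBP median 2.82 (2 genes, 2.24 and 3.41), a 3.67-fold against a 7.08-fold rise. The IRG median lay below the GBP median in each set, with differences of -0.80, -1.25 and -0.79 in sets 1, 2 and 3 and a mean of -0.95 ± 0.26 (SD, n = 3 sets). No p is given, since the members were listed with results known and 3 sets cannot bring a two-sided exact sign-flip test below 0.25. Between medians of the genes' means over sets, the difference was -0.46 with the lower probe of each gene that has several. With the other measured Gbp genes added it was -0.31, and both were chosen after seeing the data. Taken by set, the difference with these genes added was -0.11, -0.54 and -0.20, a mean of -0.28 ± 0.23. The size of the gap between families therefore turned on the Gbp3 probe and on which Gbp genes were counted.

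In the order of the rises, by the mean of each gene's probes, gaps beyond the spread stood at the 2 ends. Gbp3 exceeded Gbp2 by 1.17 ± 0.26, in all 3 sets, but Gbp3 probe 18514 alone was at 2.22 against 2.24 for Gbp2, so that gap rests on probe 4230. Iigp1 exceeded Ifi47 by 0.96 ± 0.48, in all 3 sets. Tgtp1 probe 9604 alone came nearer to Ifi47, at 1.12 against 0.73, but stayed above it in all 3 sets. Between these ends the neighbours did not differ beyond their spread. Gbp2 and Irgm1 differed by 0.19 ± 0.36, Irgm1 and Tgtp1 by 0.11 ± 0.31, Tgtp1 and Irgm2 by 0.017 ± 0.20, Irgm2 and Igtp by 0.076 ± 0.22, and Igtp and Iigp1 by 0.14 ± 0.64. In pairs of 1 IRG and 1 GBP gene, again by probe means, the IRG gene was the lower in all 3 sets in each of the 12 pairs but Irgm1 with Gbp2, which had 2 of 3 sets. Single probes turned some of these directions. Tgtp1 probe 10743 (2.51, 2.39 and 3.32 in sets 1, 2 and 3) lay above Gbp2 (2.26, 1.98 and 2.47) and above Gbp3 probe 18514 (2.18, 2.10 and 2.39) in all 3 sets, and Irgm1 (2.22, 1.38 and 2.53) lay above that Gbp3 probe in sets 1 and 3. Regulators and effectors had medians of 1.91 and 1.70, and the difference of their medians was 0.24 ± 0.55 over sets, within the spread.

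**Figure D4:**
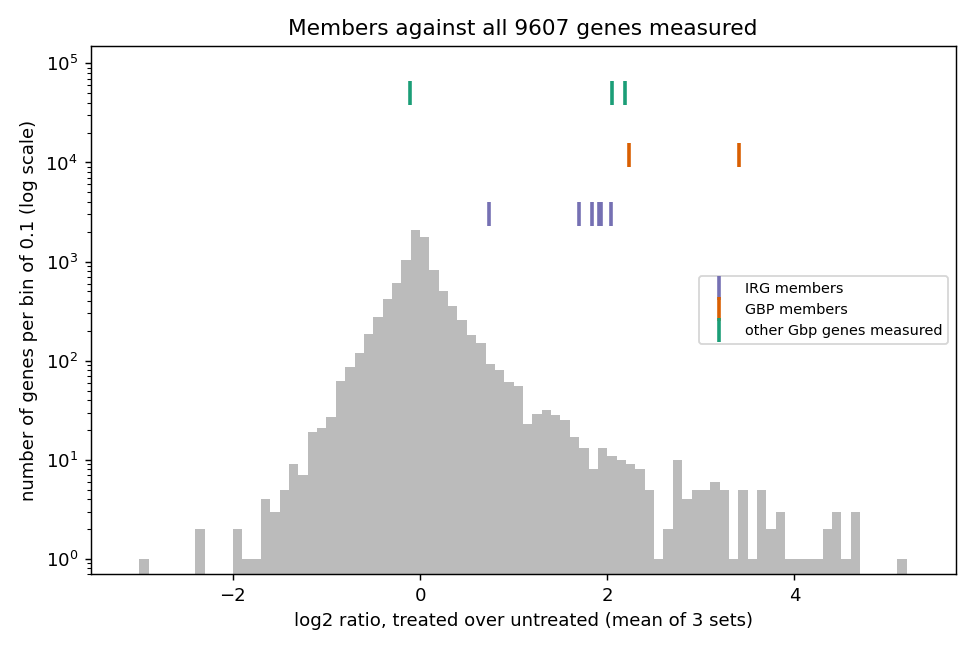
Histogram of the log2 ratio (x axis, mean of 3 sets) of 9607 genes, with the number of genes per bin on a log scale (y axis); ticks above mark the IRG members, the GBP members and the other Gbp genes measured. The IRG ticks lie from 0.73 to 2.04, the GBP ticks at 2.24 and 3.41, and of the other Gbp genes 2 lie at 2.05 and 2.19 and 1, Gbp4, at -0.11.

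The members also shared part of their order over the sets, a pattern seen afterwards and not tested. It takes arrays of the same set number as a pair, which is not settled. Set 2 gave the lowest value for 6 of 8 members (5 of 6 IRGs, all but Iigp1, and Gbp2), against 32.4% of the 1618 genes called up. Set 3 gave the highest value for 7 of 8, all but Igtp, against 34.9%. In Igtp, Irgm1, Irgm2, Ifi47 and Gbp2 set 2 was lowest in both orientations, in Tgtp1 in 1 of them and in Iigp1 and Gbp3 in neither. The IRG medians were 1.91, 1.44 and 2.27 in sets 1, 2 and 3, and the GBP medians 2.71, 2.69 and 3.07. The median SD over sets was 0.42 over the IRG members, 0.25 over the GBP members and 0.21 over the 353 genes called up at least 2-fold. Ifnb1, which encodes interferon beta, stood at 3.01, 2.29 and 3.91 in these sets (log2 3.07 ± 0.81, limma adjusted p = 0.000247), with the lowest value in set 2 and the highest in set 3 too. The interferon signalling list as a whole did not share this order: of its 13 genes called up, set 2 was lowest in 3 (23.1%) and set 3 highest in 2 (15.4%), and Irf7 was lowest in set 3, at 2.31.

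**Figure D5:**
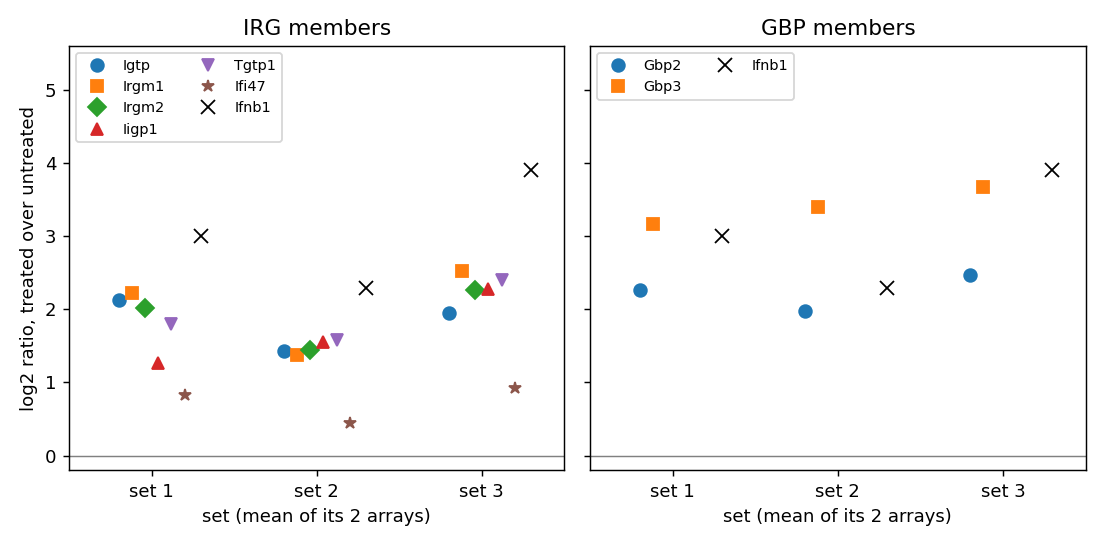
Log2 ratio (y axis) of each IRG member (left) and GBP member (right) in sets 1, 2 and 3 (x axis), each symbol being the mean of a set's 2 arrays, with Ifnb1 as crosses in both panels. IRG medians are 1.91, 1.44 and 2.27 and Ifnb1 is at 3.01, 2.29 and 3.91, while Gbp3 moves between 3.17 and 3.67.

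No member was called for a dye effect. The difference between orientations (Cy5 minus Cy3) ran from -0.19 for Irgm1 to 0.37 for Gbp2, and 0 of 8 were called in limma's test of the dye term (lowest adjusted p = 0.374, for Gbp2, whose unadjusted p was 0.0869), where 0.364% of all genes were called. Gbp2 averaged 2.42 ± 0.20 in Cy5 and 2.05 ± 0.33 in Cy3.

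Of 20 further IRG and GBP genes searched for, 3 were measured. Gbp2b (the former mouse Gbp1), between Gbp3 and Gbp2 in gene order, rose 4.14-fold (log2 2.05 ± 0.12, limma adjusted p = 6.76e-06), with its probes at 2.97 and 1.13. Gbp8, of the separate GBP cluster on chromosome 5, rose 4.55-fold (log2 2.19 ± 0.60, limma adjusted p = 0.000327) and read 2.03, 1.69 and 2.84 in sets 1, 2 and 3. Gbp4, from that same cluster, was at -0.11 ± 0.14 (limma adjusted p = 0.403), with 1 probe. RefSeq lists Gbp4 among the older names of Gbp3, and array names can be old. The annotation ties the Gbp4 probe to a different sequence record from that of either Gbp3 probe.

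Among 8 measured genes of the dynamin superfamily, 3 rose and 1 fell, where 16.8% of all genes were called up and 14.6% down. The antiviral GTPases Mx1 (log2 2.70 ± 0.19) and Mx2 (2.34 ± 0.17) rose most, with limma adjusted p = 3.75e-06 and 6.42e-06, and Ehd1, a recycling-endosome protein named after its value was seen, rose as well (1.22 ± 0.11). Atl3, an atlastin that shapes the endoplasmic reticulum, fell (-0.33 ± 0.07, limma adjusted p = 0.0128), a call that was lost without set 1 or set 2 (adjusted p = 0.0785 and 0.0583). The 4 others were not called. The list's median was 0.067.

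Of 18 measured genes of interferon signalling, 13 rose and 1 fell, where 16.8% of all genes were called up and 14.6% down. The list's median was 0.50 against -0.0076 for all genes. Ifnb1 was followed by Irf7, which drives interferon genes (log2 2.46 ± 0.14, limma adjusted p = 3.75e-06). Irf1, an activator of IRG and GBP genes, rose 1.43-fold (0.52 ± 0.19, limma adjusted p = 0.00528). Ifng, the gene of interferon gamma, the classical inducer of both families, was at -0.061 ± 0.049 (limma adjusted p = 0.591). Of the receptor chains for interferon gamma, Ifngr1 fell (-0.36 ± 0.10, limma adjusted p = 0.0105). Ifngr2, named after its value was seen, rose (0.34 ± 0.097, limma adjusted p = 0.0127). Ciita, Irf2 and Jak1 were the other genes that were not called.

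Of 20 measured genes of autophagy and vacuole targeting, 7 rose and 2 fell, with a median of 0.084. The shares of all genes called were 16.8% up and 14.6% down. The loading of IRGs depends on some genes of this list, not on all. The largest rises were not in autophagy genes proper but in the ubiquitin-like modifier Isg15 (log2 3.76 ± 0.07, limma adjusted p = 1.49e-06) and its conjugating enzyme Ube2l6 (1.77 ± 0.02, limma adjusted p = 7.5e-06). Among autophagy genes proper, Atg10 (0.73 ± 0.33), Atg12 (0.70 ± 0.26), Map1lc3a (0.65 ± 0.21) and Gabarapl1 (0.50 ± 0.20) rose, with limma adjusted p of at most 0.00687. Trim21 rose too (1.14 ± 0.32), and these 5 genes were named after their values were seen. With exact zeros kept as ratios, Isg15 read 1.82 (limma adjusted p = 0.00635) and 5 genes of the list rose. Map1lc3b, an LC3 protein of the autophagosome, fell (-0.51 ± 0.13), as did Atg16l1, which directs LC3 conjugation (-0.41 ± 0.06), with limma adjusted p = 0.00331 and 0.00512.

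In the caspase-4 inflammasome list 4 of 5 measured genes rose and 0 fell, where 16.8% of all genes were called up and 14.6% down. Casp4, the LPS-sensing caspase that GBPs assist, rose 2.28-fold (log2 1.19 ± 0.24, limma adjusted p = 0.000234), at 1.32, 0.91 and 1.33 in sets 1, 2 and 3. The cytokine genes Il1b (4.63 ± 0.55) and Il18 (1.40 ± 0.17) rose, and Pycard, the adaptor ASC, was at -0.021 ± 0.097 (limma adjusted p = 0.882). Casp1 was at 2.05 ± 1.29 (limma adjusted p = 0.00919), with 3.54 in set 3 against 1.28 and 1.34; without set 3 its value was 1.31, and with robust moderation it was no longer called (adjusted p = 0.155). With exact zeros kept as ratios it read 1.03 and was not called either (limma adjusted p = 0.107), and 3 genes of the list rose with zeros kept and 3 with robust moderation.

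The genes whose 6 array values lay nearest to the mean IRG profile, by root mean square distance over the 6 arrays and among 9599 other genes, were Ms4a4b (0.158), Stfa3 (0.17), Ifi211 (0.211), Fabp4 (0.237) and Trank1 (0.239). Ms4a4b, Stfa3 and Ifi211 lay nearer to that mean than any IRG member did, the nearest being Irgm2 at 0.232. For the mean of Gbp2 and Gbp3 the nearest were Zfp36 (0.121), Ifih1 (0.167), Mx1 (0.188), Axl (0.19) and Bcl3 (0.21). Gbp2 and Gbp3 themselves each lay 0.602 from that mean, so nearness to it is not likeness to either gene.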

How the data were processed

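The deposited table holds 1 log2 ratio per probe and array. How the authors corrected background and normalized is not given in the sources used here. Each of the 6 arrays was turned to treated over untreated by the dye in the labels. Exact zeros (9.56% to 12.9% of an array's probes) were taken as missing. Of 16281 probes 13738 named 1 symbol, 52 several, and 2491 are unnamed here; the 10 member probes kept their symbols in the GRCm38.p6 gene table.

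Probes were averaged per gene and arrays per set number, and the 3 values per gene were compared with 0 by limma 3.58.1 in R 4.3.3 (moderated two-sided test after lmFit and eBayes). The dye term was fitted over the 6 arrays beside treatment. Windows were searched and aligned with Biopython 1.88 in Python 3.11.15.

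Members and lists were chosen with earlier results of these data known. Named genes were all members, the 2 largest called rises and falls of each list, every gene of lists with at most 5 measured, the 5 nearest profiles per family, and Ifnb1, Ifng and Irf1 by name; another gene fixed by name is not reported here. Alternatives covered zeros, centring, quantile normalization, probe summary, filter, replicate block, orientation, robust moderation, a test against 2-fold, and leaving out each set.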

Additional observations from a re-analysis of the deposited data

How the results depend on the processing

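All 8 measured members kept their direction under all 14 other settings tried, and all 8 kept their call, with adjusted p-values of at most 0.0397 (Ifi47), except in limma's test against a fold of 2, where 6 passed and Iigp1 (adjusted p = 0.12) and Ifi47 (adjusted p = 1) did not. That test called 191 genes up and 16 down of 9607, with 3 up and 0 down in interferon signalling, 2 up and 0 down in the autophagy list, 1 up in the caspase-4 list and 0 down in the dynamin superfamily. With exact zeros kept as ratios, 903 genes fell against 1400, 0 dynamin superfamily genes fell and Atl3 read 0.028; with Cy5 arrays alone also 0 fell there. Without 1 set, 0 to 1 of them fell. With Cy3 arrays alone, 0 interferon signalling genes fell, 1 caspase-4 list gene fell (Pycard, -0.36), and Ifng read 0.12. Pycard read 0.31 with Cy5 arrays alone and -0.077 to 0.0082 without 1 set. Causes of these shifts were not tested.

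The GBP median of 2.82 was 2.19 with the other Gbp genes added and 2.23 with lower probes, and its gap to the IRG median was -0.31 and -0.46. Same-numbered arrays of the 2 orientations correlated in their deviations at 0.188, 0.0498 and 0.544, and arrays of different numbers at -0.365 to 0.196. The numbers may thus not pair all arrays, and these values cannot settle it, since noise also lowers a correlation. With 6 arrays and the set number as replicate block (consensus correlation 0.0031), 1780 genes rose and 1598 fell, all 8 members among those that rose; with no block it was 1781 and 1600. Signal over background is not known here, and which member of these families each probe reads stays uncertain.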
